A study of Mus musculus with 4 samples.

Results

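Quiescence, the resting state outside the cell cycle, is kept in lymphocytes by a group of transcription factors and RNA-binding regulators. The genes described here are 9 of the 21926 genes counted in a single-cell RNA-seq study of the mouse thymus. They are the forkhead factors Foxo1, Foxo3 and Foxp1, the Krüppel-like factors Klf3 and Klf13, the antiproliferative genes Btg1, Btg2 and Tob1, and the leucine zipper gene Tsc22d3. They were taken by symbol for this role, with earlier results of these data known. All 9 were counted in both libraries, with 246 (Tob1) to 9105 (Btg1) UMIs in WT and 223 (Tob1) to 6138 (Btg1) UMIs in Eif4g2 cKO.

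FOXO factors are held in the cytoplasm when PI3K-Akt signalling phosphorylates them. In resting T cells they enter the nucleus and switch on cell-cycle inhibitors and homing genes. Proteins of the BTG/TOB family bring the CCR4-NOT deadenylase to messenger RNAs, which shortens poly(A) tails, and Btg1 and Btg2 are known for holding naive T cells at rest. In the thymus, double-negative (DN) cells divide in a burst and become double-positive (DP) cells, most of which then rest until selection turns some of them into single-positive (SP) cells.

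Thymocytes came from 1 WT mouse (Eif4g2 flox/flox alleles and no Cre) and 1 Eif4g2 cKO mouse (CD4-Cre with Eif4g2 flox/flox), so the floxed alleles were shared by both. The mice were 5 weeks old, and the cells were captured unsorted on the DNBelab C4 droplet system. Cd4-Cre acts from around the DP stage, and most DN cells and the stroma keep the intact alleles. A unique molecular identifier (UMI) marks 1 captured transcript near its 3′ end, and the files hold raw UMI counts per gene and cell, 18355050 for WT and 18056277 for Eif4g2 cKO. With 1 library per genotype there was no replicate and no test. All intervals below are 95% intervals for counting error only, and genotype cannot be told apart from any other difference between the 2 mice.

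The libraries stood apart in several ways. Both mice are labelled female, yet Eif2s3y, Uty and Kdm5d, which lie on the Y chromosome, summed to 2542 UMIs for WT and 1 for Eif4g2 cKO, so sex and genotype cannot be told apart. Eif4g2 itself was at 223 CPM (UMIs per 1000000 UMIs) in WT and 274 CPM in Eif4g2 cKO; the tags read near the 3′ end do not check the deletion. Haemoglobin transcripts summed to between 198 and 1058 CPM in the WT classes described below and to between 10.2 and 99.3 CPM in the Eif4g2 cKO classes. Running cell names occurred 1055 times in both libraries; they are numbers and not barcode sequences.

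Cells were clustered without the 9 genes and named "X-like" from marker genes, and 5 classes were compared. They were DN-like cells (94 WT and 117 Eif4g2 cKO), cycling cells (1166 and 1429), resting DP-like cells (1576 and 824), early post-selection-like cells (919 and 585) and mature SP-like cells (633 and 176). Cycling and resting were called after thinning each cell to 1000 UMIs, with at least 3 UMIs of 44 cell-cycle genes for cycling and 0 for resting. The proliferation gene Mki67 is among these 44 genes, so its contrast follows from the call. It was at 238 and 214 CPM in the cycling cells of WT and Eif4g2 cKO. The resting DP-like cells had 5.19 and 2.85 CPM. The call is a range and not a cell type, since 468 WT and 389 Eif4g2 cKO cells of these clusters had 2 such UMIs and 198 and 162 had 3. Cells with 1 or 2 such UMIs fell in no class, among them 1520 WT and 1119 Eif4g2 cKO cells of the DP-like clusters. Klf2, among the markers that named the mature SP-like class, was at 362 and 337 CPM in those cells. In the other classes it was at no more than 40.5 CPM. Different clusters held most of a class in each library: of the resting DP-like cells, cluster 0 held 1380 WT and 65 Eif4g2 cKO cells, and cluster 5 held 196 and 759. Of the cycling cells, cluster 3 held 589 WT and 40 Eif4g2 cKO cells and cluster 7 held 56 and 876.

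The promoters of the members were searched on both strands for letters that factors of their own kind or of the cAMP pathway are known to bind. The windows ran from 250 bases before to 50 bases after each start, in RefSeq sequence of GRCm38.p6, where all 9 genes matched with 13 starts. The forkhead core GTAAACA, which reads TGTTTAC from the other strand, was present in 3.65% of all 32851 promoters and in 1 member, Btg1. The cAMP response element TGACGTCA was present in 1.79% of promoters and in 1 member, Btg2. The CACCC box CCACACCC was present in 3.56% of promoters and in 0 members. Both matches are shown, with 9 bases on either side and the motif in capitals, because these are the 2 members with a match, and Btg1 has the largest ratio of resting to cycling cells below. A match is a run of letters and not a shown binding site. The match of Btg1 lies at chr10:96616788-96616812 on the plus strand, with the motif at -204 from the start. The match of Btg2 lies at chr1:134079305-134079330 on the minus strand, with the motif at -166. Both distances are from the RefSeq starts, which are not the same as the gene positions printed below.
Btg1: gggtttattTGTTTACaagcagatt
Btg2: tcccaataaTGACGTCAgtgagcgat

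Levels were highest in resting DP-like cells for 8 of the 9 genes in both libraries, and highest in mature SP-like cells for Foxo1. For Foxo3 and Tob1 in both libraries, and for Tsc22d3 in WT, the interval of the peak overlapped that of the next class. The share of all genes with this peak was not counted. Beyond 0.5 on the log2 scale, 50.3% (WT) and 53.5% (Eif4g2 cKO) of all genes were higher in resting DP-like than in cycling cells. By the same limit, 48.8% and 52.1% were lower in mature SP-like than in resting DP-like cells. A level here is a gene's share of the UMIs of a class, as CPM. Counted as UMIs per cell, no member was highest in resting DP-like cells in either library. In WT, Foxo3 had 0.351 UMIs per cell in DN-like and 0.136 in resting DP-like cells. Btg1 had 2.84 in mature SP-like and 1.39 in resting DP-like cells of WT. Foxo1 (ENSMUSG00000044167.6; chromosome 3 of GRCm38, 52268336 to 52353221, plus strand) controls the homing and survival genes of naive T cells. In WT it was at 23.1 CPM (12.3 to 39.6) in DN-like cells, 30.5 (26.7 to 34.7) in cycling cells, 71.9 (61.8 to 83.2) in resting DP-like cells, 78.3 (66.5 to 91.5) in early post-selection-like cells and 173 (158 to 190) in mature SP-like cells. In Eif4g2 cKO the same classes had 20.6 (11.8 to 33.5), 20.03 (17.5 to 22.8), 71.2 (57.9 to 86.6), 63.5 (51.3 to 77.7) and 178 CPM (150 to 210). The mature level stood clear of the rest in both libraries, while the intervals of DN-like and cycling cells overlapped, as did those of resting DP-like and early post-selection-like cells. From the lowest to the highest class Foxo1 spanned 7.49-fold in WT and 8.88-fold in Eif4g2 cKO.

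Foxo3 (ENSMUSG00000048756.11; chromosome 10, 42181841 to 42276755, minus strand), a second FOXO factor with overlapping targets, had another order. In WT it was at 58.7 CPM (40.4 to 82.5) in DN-like, 28.6 (24.9 to 32.7) in cycling, 85.5 (74.4 to 97.7) in resting DP-like, 53.0 (43.4 to 64.0) in early post-selection-like and 32.5 (26.0 to 40.1) in mature SP-like cells. In Eif4g2 cKO the values were 25.8 (15.8 to 39.8), 13.4 (11.4 to 15.8), 33.5 (24.6 to 44.5), 23.6 (16.5 to 32.9) and 20.3 CPM (11.6 to 33.0). The 5 classes stood in the same order in both libraries, with the peak before selection where Foxo1 had its peak after it. Neighbours in that order overlapped in all 4 steps in Eif4g2 cKO and in 3 of 4 steps in WT.

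Foxp1 (ENSMUSG00000030067.17; chromosome 6, 98925338 to 99522721, minus strand) is a forkhead repressor known for keeping naive T cells quiescent. Its WT levels were 344 CPM (297 to 396) in DN-like, 219 (209 to 230) in cycling, 742 (708 to 776) in resting DP-like, 652 (617 to 688) in early post-selection-like and 631 (601 to 662) in mature SP-like cells. Its Eif4g2 cKO levels were 156 (130 to 186), 112 (106 to 118), 361 (330 to 394), 237 (213 to 263) and 235 CPM (202 to 271). The order was the same in both libraries, every Eif4g2 cKO level lay below its WT counterpart, and the intervals of early post-selection-like and mature SP-like cells overlapped.

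**Figure D1:**
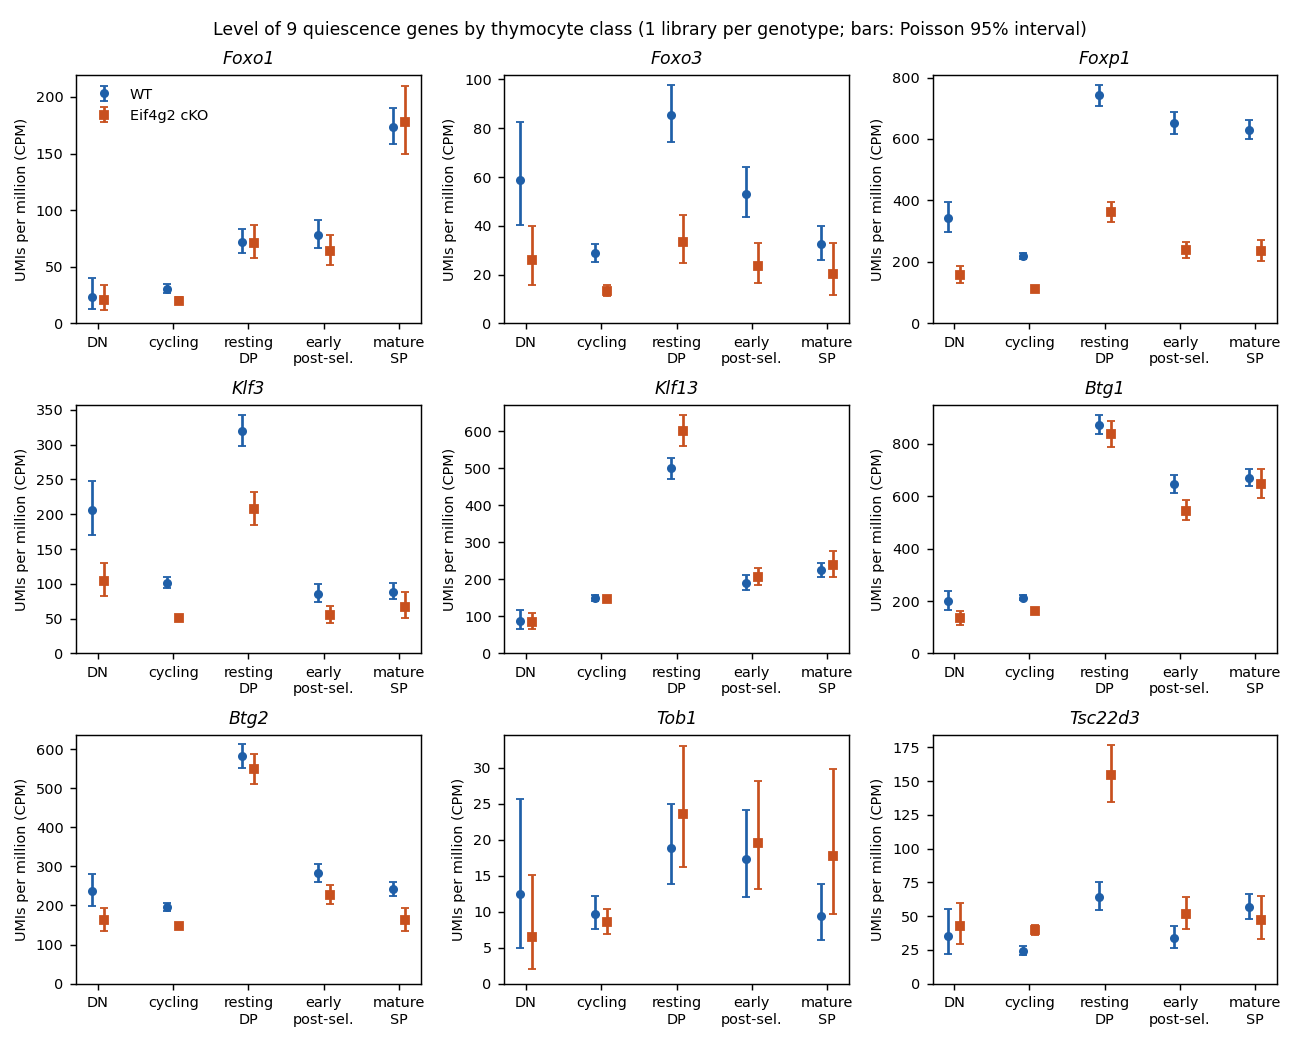
Level of each of the 9 genes (vertical axis, CPM) in 5 thymocyte classes (horizontal axis) in the WT library (circles) and the Eif4g2 cKO library (squares), with Poisson 95% intervals. Foxo1 is highest in mature SP-like cells, at 173 and 178 CPM, the other 8 genes are highest in resting DP-like cells, and Foxp1, Foxo3 and Klf3 lie lower in Eif4g2 cKO in each class.

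The Krüppel-like factors shared a sharp peak in resting DP-like cells. Klf3 (ENSMUSG00000029178.14; chromosome 5, 64803388 to 64832901, plus strand) is a repressor that works with CtBP. It was at 206 CPM (171 to 248) in DN-like, 102 (94.7 to 109) in cycling, 320 (298 to 342) in resting DP-like, 85.7 (73.4 to 99.5) in early post-selection-like and 88.6 (77.6 to 101) in mature SP-like cells of WT. In Eif4g2 cKO it was at 104 (83.0 to 130), 50.7 (46.7 to 55.1), 207 (184 to 232), 55.4 (44.0 to 68.7) and 67.3 CPM (50.4 to 88.1). Resting DP-like cells stood clear of every other class in both libraries, and DN-like cells came next, clear of the rest in WT and overlapping mature SP-like cells in Eif4g2 cKO. Klf13 (ENSMUSG00000052040.10; chromosome 7, 63886351 to 63938915, minus strand), a GC-box factor of T cells, was at 89.0 (66.1 to 117), 149 (140 to 158), 500 (472 to 528), 191 (173 to 211) and 225 CPM (207 to 244) in the same WT classes. In Eif4g2 cKO it was at 85.1 (65.8 to 108), 148 (141 to 155), 601 (561 to 643), 207 (184 to 231) and 239 CPM (206 to 276). DN-like cells came directly after resting DP-like cells for Klf3 and were lowest for Klf13.

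Btg1 and Btg2 were also highest in resting DP-like cells. Btg1 (ENSMUSG00000036478.8; chromosome 10, 96617006 to 96622809, plus strand) was at 199 CPM (164 to 240) in DN-like, 213 (202 to 223) in cycling, 872 (836 to 909) in resting DP-like, 645 (611 to 681) in early post-selection-like and 671 (640 to 702) in mature SP-like cells of WT. Its Eif4g2 cKO levels were 134 (110 to 163), 164 (156 to 172), 836 (789 to 886), 545 (508 to 584) and 647 CPM (592 to 705). The annotation holds 2 Btg1 pseudogenes that are also rows of the files, so a share of Btg1 tags could have been assigned to them. Btg2 (ENSMUSG00000020423.6; chromosome 1, 134075170 to 134079120, minus strand) is an immediate early gene and a p53 target. It was at 237 (198 to 281), 196 (187 to 207), 582 (552 to 612), 282 (259 to 306) and 241 CPM (223 to 261) in WT and at 163 (135 to 194), 148 (141 to 156), 548 (510 to 588), 227 (203 to 253) and 163 CPM (136 to 193) in Eif4g2 cKO. After selection Btg1 stayed at 645 CPM or more in WT, whereas Btg2 was at 282 CPM or less.

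Tob1 (ENSMUSG00000037573.5; chromosome 11, 94211454 to 94215495, plus strand), a BTG relative that is high in anergic and resting T cells, was scarce. In WT it had 7 UMIs in DN-like, 73 in cycling, 47 in resting DP-like, 35 in early post-selection-like and 25 in mature SP-like cells, which gave 12.5, 9.63, 18.8, 17.3 and 9.34 CPM. In Eif4g2 cKO it had 5, 96, 33, 29 and 14 UMIs in these classes, or 6.45, 8.55, 23.5, 19.6 and 17.8 CPM. All neighbouring intervals overlapped, and its order of classes is not resolved at this depth. Tsc22d3 (ENSMUSG00000031431.13; chromosome X, 140539528 to 140600659, minus strand), which encodes the glucocorticoid-induced leucine zipper protein GILZ, was at 35.6 CPM (21.7 to 55.0), 24.3 (20.9 to 28.1), 64.3 (54.8 to 75.04), 33.7 (26.2 to 42.7) and 56.8 (48.1 to 66.6) in the WT classes. In Eif4g2 cKO it was at 42.6 (29.3 to 59.8), 39.8 (36.2 to 43.7), 154 (135 to 176), 51.3 (40.4 to 64.2) and 47.0 CPM (33.1 to 64.8). The resting DP-like peak overlapped the mature level in WT and stood clear of all other classes in Eif4g2 cKO. In the 41 erythroid-like cells of WT the members were at 0 to 38.5 CPM. Foxo1, Foxp1, Klf3 and Klf13 overlap other annotated genes, and the use of strand and of intronic reads in counting is not given in the sources used here.

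Resting DP-like cells had a higher share of their transcripts in each of the 9 genes than cycling cells had. These classes also differed in markers that named the DP-like clusters. Rag1 was at 960 CPM in resting DP-like and 205 CPM in cycling cells of WT, and at 997 and 190 CPM in Eif4g2 cKO. Cd4 was at 1351 and 279 CPM in WT and at 1498 and 245 CPM in Eif4g2 cKO. Cycle state and stage were therefore not separated. A gene was counted as higher or lower when its log2 ratio lay beyond 0.5, with at least 50 UMIs over both arms. All 9 passed the depth limit and all 9 were higher, in WT and in Eif4g2 cKO, where 50.3% and 53.5% of all genes of that depth were higher and 17.6% and 16.2% lower. The median log2 ratio was 1.58 over the members and 0.51 over the 9014 genes in WT, and 1.89 and 0.58 (8778 genes) in Eif4g2 cKO. Btg1 had the largest ratio in both libraries, at 2.04 (1.94 to 2.13) in WT and 2.35 (2.24 to 2.46) in Eif4g2 cKO. Foxp1 followed in WT at 1.76 (1.66 to 1.85), with 1.69 (1.54 to 1.84) in Eif4g2 cKO, and Klf13 was at 1.75 (1.63 to 1.86) and 2.02 (1.90 to 2.14). The intervals of these 2 transcription factors overlapped in WT, while in Eif4g2 cKO Klf13 stood above Foxp1. The ratios of Klf3 were 1.65 and 2.03, those of Foxo3 1.58 and 1.32, and those of Btg2 1.57 and 1.89. Tsc22d3 was at 1.41 and 1.96, Foxo1 at 1.24 and 1.83, and Tob1, with the widest interval, at 0.96 (0.40 to 1.51) and 1.46 (0.84 to 2.04).

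Cycling cells also held more UMIs, with a mean of 6500 per cell against 1589 in resting DP-like cells of WT, and 7862 against 1705 in Eif4g2 cKO. Counted as UMIs per cell, 0 of the 9 genes were higher in resting cells in either library, where 0.743% and 0.684% of all genes were. On this scale 3 of 9 were lower and 6 lay within 0.5 in each library, beside 90.4% and 90.8% of all genes lower. The median log2 ratio of UMIs per cell was -0.45 for the members and -1.53 for all genes in WT, and -0.32 and -1.63 in Eif4g2 cKO. Btg1 had the same number per cell in both states of WT, 1.39 UMIs at rest and 1.38 in cycling cells, a log2 ratio of 0.00 (-0.09 to 0.10). In Eif4g2 cKO it had 1.43 and 1.29 UMIs per cell, a log2 ratio of 0.15 (0.04 to 0.25). Foxo1 was among the lower genes per cell in WT, at 0.114 UMIs at rest and 0.198 in cycling cells. Barcodes under 1000 UMIs are not in the files, so the smallest resting cells were not counted.

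**Figure D2:**
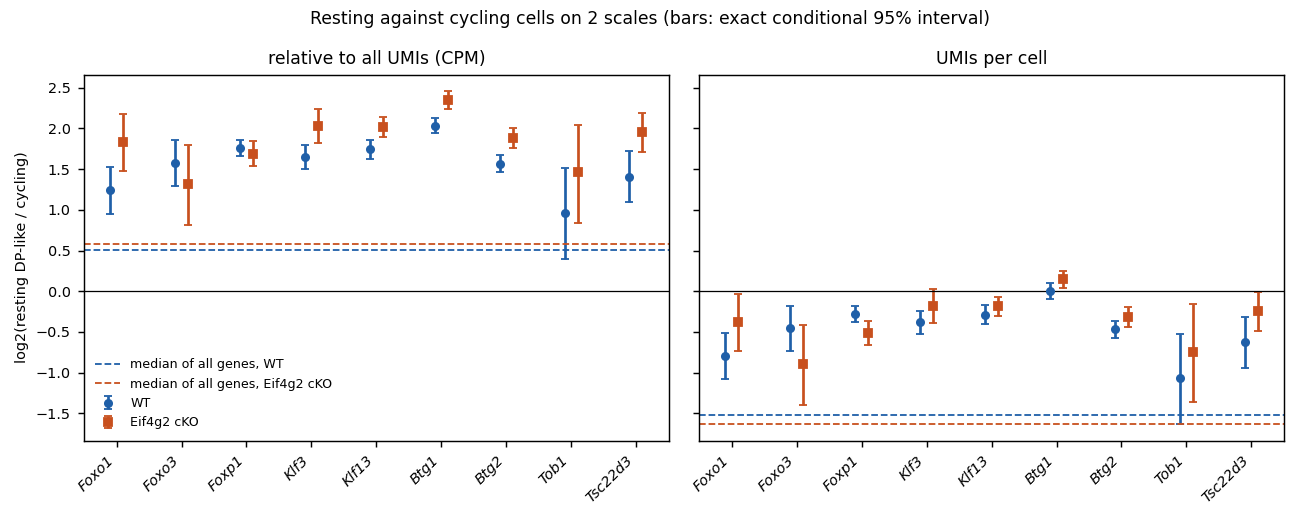
Log2 ratio of resting DP-like to cycling cells for each gene, as CPM (left) and as UMIs per cell (right), in WT (circles) and Eif4g2 cKO (squares), with exact conditional 95% intervals and dashed lines at the median of all genes. The 9 genes lie between 0.96 and 2.35 as CPM and between -1.07 and 0.15 as UMIs per cell, above the median of all genes in both panels.

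The share of the 9 genes was lower in larger dividing cells. Cycling WT cells of 1000 to 3000 UMIs (404 cells) had 2396 CPM of the 9 genes summed, those of 3000 to 6000 UMIs (344 cells) 1274 CPM, those of 6000 to 10000 UMIs (206 cells) 997 CPM and those of at least 10000 UMIs (212 cells) 579 CPM. In Eif4g2 cKO the same bins had 2312, 994, 763 and 466 CPM. The smallest bin held 215 WT and 162 Eif4g2 cKO cells of the DP-like clusters, most of them at the limit of the cycling call. In the cycling-like clusters alone the sums were 1628, 1255, 997 and 579 CPM in WT and 1375, 969, 763 and 466 CPM in Eif4g2 cKO. The number per cell went the other way, from 4.12 to 10.3 UMIs in WT and from 3.88 to 7.84 UMIs in Eif4g2 cKO. Btg1 was the flattest per cell, at 1.07, 1.41, 1.67 and 1.65 UMIs from the smallest to the largest bin of WT, while Foxp1 went from 0.817 to 2.82 UMIs. Resting DP-like cells showed little of this slope, with 3278, 3357 and 3108 CPM in WT cells of 1000 to 1500, 1500 to 2000 and at least 2000 UMIs, and 3078, 2768 and 2620 CPM in Eif4g2 cKO.

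In cells of a like size range the difference remained for most members. All resting cells of this range were in DP-like clusters, but only 23 of the 241 cycling WT cells and 29 of the 215 cycling Eif4g2 cKO cells were. Cycle state and cluster were therefore not separated here. Among cells of 2000 to 4000 UMIs, 240 resting WT cells had a mean of 2518 UMIs and 241 cycling ones 3025, and the 9 genes summed to 7.93 and 4.64 UMIs per cell. In Eif4g2 cKO, 180 resting and 215 cycling cells had means of 2653 and 3120 UMIs and summed to 7.04 and 4.12 UMIs per cell. As log2 ratios of CPM, 7 of the 8 members with enough UMIs were higher in resting WT cells, beside 37.5% of all genes, and 7 of 7 in Eif4g2 cKO, beside 30.9%, while 0 were lower beside 17.7% and 17.3%. The medians were 1.13 for the members and 0.27 for all genes in WT, and 1.08 and 0.17 in Eif4g2 cKO. The exception in WT was Tsc22d3 at 0.27 (-0.39 to 0.93), which was at 1.10 (0.61 to 1.598) in Eif4g2 cKO. The other 7 intervals of WT past the depth limit lay above 0. Foxo3 in WT was at 1.41 (0.70 to 2.15), Foxp1 at 1.38 (1.13 to 1.63) and 1.08 (0.70 to 1.45) in the 2 libraries, and Btg1 at 1.10 (0.89 to 1.31) and 1.06 (0.82 to 1.31). Btg2 had the smallest ratio in this size range among the members past the depth limit in Eif4g2 cKO, 0.67, and was at 0.60 in WT.

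Within the DP-like clusters alone the difference between resting and cycling cells did not appear. The 221 WT and 172 Eif4g2 cKO cells of DP-like clusters that met the cycling call had medians of 1331 and 1340 UMIs and Mki67 at 39.2 and 70.5 CPM, against 247 and 217 CPM in the cells of the cycling-like clusters. Of them, 156 and 112 had 3 cycle UMIs, the least that the call allows. Between these cells and the resting ones of the same clusters, 1 of 9 members was higher in WT (Tob1, 0.64, -0.81 to 2.57), where 12.2% of all genes were higher and 9.97% lower. In Eif4g2 cKO 0 of 8 were higher and 1 was lower (Foxo3, -0.53, -1.44 to 0.48), where 9.61% of all genes were higher and 10% lower. As UMIs per cell, 1 of 9 was higher and 0 lower in WT beside 15.1% and 7.26% of all genes, and 1 of 8 and 0 in Eif4g2 cKO beside 14.2% and 5.68%. The 9 genes summed to 3298 CPM in these cells of WT and to 3255 CPM in the resting ones, and to 866 CPM in the cells of the cycling-like clusters. In Eif4g2 cKO the 3 values were 2997, 2836 and 648 CPM.

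Mature SP-like cells were also divided by the cycle call, into 319 resting and 80 cycling cells in WT and 81 and 29 in Eif4g2 cKO. Of the 8 members with enough UMIs in WT, 5 were higher at rest and 0 lower, beside 21.3% of all genes higher and 16.1% lower. Of the 5 in Eif4g2 cKO, 4 were higher and 0 lower, beside 17.8% and 22.3%. The cycling mature cells were larger, with medians of 5982 UMIs against 3501 in WT and 7886 against 3266 in Eif4g2 cKO. Per cell the 9 genes summed to 8.99 UMIs at rest and 8.65 in cycling cells of WT, and to 7.59 and 7.79 in Eif4g2 cKO. Btg1 went from 345 CPM (296 to 400) in cycling to 804 CPM (755 to 856) in resting mature cells of WT and from 385 (310 to 474) to 870 CPM (766 to 984) in Eif4g2 cKO. Foxo1 was at 130 CPM (101 to 165) in cycling and 191 CPM (167 to 217) in resting mature cells of WT, so its cycling mature cells lay above its resting DP-like cells. As UMIs per cell Foxo1 was lower at rest, at 0.730 against 0.825 in WT and 0.741 against 1.24 in Eif4g2 cKO. In WT so was every other member but Foxp1 and Btg1. Among them were Klf13 (0.856 against 1.19), Foxo3 (0.110 against 0.188), Klf3 (0.332 against 0.362) and Btg2 (0.944 against 1.04). In Eif4g2 cKO Klf3 (0.309 against 0.448) and Tob1 were also lower, and the remaining members were higher. For each of these lower members the intervals of resting and cycling cells overlapped. In DN-like cells 4 of 4 members with enough UMIs were higher at rest in WT and 2 of 3 in Eif4g2 cKO, beside 15.1% and 9.67% of all genes, on 30 resting and 21 cycling WT cells and 40 and 20 Eif4g2 cKO cells. None of these members was lower, beside 22.3% and 16.1% of all genes. Btg1 was among them in both, at 1.26 (0.38 to 2.20) and 0.99 (0.15 to 1.90).

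Within the cycle, cells in which G2M genes outnumbered S genes (663 WT and 758 Eif4g2 cKO) were set against those in which S genes led (448 and 591). In WT 3 of 9 members were higher in the G2M cells, beside 12.8% of all genes, and in Eif4g2 cKO 2 of 9, beside 14.6%. In neither library was a member lower, beside 7.65% and 7.26%. Tsc22d3 was higher in both libraries, at 0.73 (0.25 to 1.22) and 0.69 (0.39 to 0.99). Foxo1 was at 0.77 (0.33 to 1.22) in WT and 0.26 (-0.15 to 0.68) in Eif4g2 cKO, Tob1 at 0.98 (0.18 to 1.83) and -0.17 (-0.80 to 0.47), and Btg2 at 0.43 (0.27 to 0.60) and 0.63 (0.48 to 0.78). Foxo3 was level, at -0.16 and -0.11.

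After selection the members divided. In mature SP-like against resting DP-like cells, Foxo1 alone was higher, with a log2 ratio of CPM of 1.27 (1.02 to 1.53) in WT and 1.32 (0.94 to 1.71) in Eif4g2 cKO, while 5 of 9 members were lower in WT and 6 of the 8 with enough UMIs in Eif4g2 cKO. Among all genes 13.8% and 9.29% were higher and 48.8% and 52.1% lower, with medians of -0.48 and -0.53, so the number of lower members is near the background. Klf3 had the lowest ratio in WT, -1.85 (-2.07 to -1.64), and was at -1.62 (-2.07 to -1.19) in Eif4g2 cKO. Btg2 was at -1.27 (-1.40 to -1.13) and -1.75 (-2.03 to -1.48), and Klf13 at -1.15 (-1.29 to -1.01) and -1.33 (-1.57 to -1.10). Klf3, Btg2 and Klf13 were thus lower in both libraries with intervals clear of 0. Foxo3 was at -1.39 (-1.77 to -1.03) in WT and -0.72 (-1.64 to 0.13) in Eif4g2 cKO. Btg1 kept most of its level, at -0.38 and -0.37. Foxp1 was at -0.23 in WT and -0.62 in Eif4g2 cKO, and Tsc22d3 at -0.18 (-0.51 to 0.15) in WT and -1.72 (-2.26 to -1.21) in Eif4g2 cKO.

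Mature SP-like cells were larger, with medians of 3671 and 3556 UMIs against 1430 and 1405 in resting DP-like cells. As UMIs per cell, 4 of 9 members were higher and 0 lower in WT, and 4 of 8 higher and 0 lower in Eif4g2 cKO, beside 73.2% and 70.1% of all genes higher and 4.77% and 4.61% lower. Foxo1 was the largest, at 0.733 against 0.114 UMIs per cell in WT and 0.795 against 0.121 in Eif4g2 cKO. The summed markers of antigen-presenting cells were at 2044 and 1223 CPM in the mature SP-like cells and at 149 CPM or less in resting DP-like cells, and the cluster that held most of them had Cd74 among its leading genes. Without the 56 WT and 14 Eif4g2 cKO cells that had at least 2 such UMIs after thinning to 1000, Foxo1 was at 1.29 and 1.38, Klf3 at -1.78 and -1.60, and the counts of higher and lower members were the same. In mature cells with 0 cycle UMIs 4 members were lower in Eif4g2 cKO in place of 6, with Foxo3 at 0.04 and Foxp1 at -0.22. When each library was clustered alone no Eif4g2 cKO cluster met the rule for mature SP-like cells, and those comparisons could not be made.

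Mature SP-like cells with UMIs of only Cd4 or only Cd8 genes gave the coreceptor lineages in part. Foxp1 was at 754 CPM (662 to 855) in 93 Cd4-only and 561 CPM (517 to 607) in 249 Cd8-only cells of WT, and at 394 (266 to 562) in 25 and 209 CPM (156 to 275) in 60 cells of Eif4g2 cKO. Btg1 was at 822 (726 to 928) against 598 CPM (553 to 646) in WT and at 1023 (809 to 1277) against 623 CPM (528 to 730) in Eif4g2 cKO. As CPM, the Cd4-only level was above the Cd8-only level for both genes in WT with no overlap of intervals. In Eif4g2 cKO the CPM intervals of Btg1 did not overlap and those of Foxp1 did. As UMIs per cell the WT intervals overlapped for both genes. Foxp1 had 2.60 (2.28 to 2.95) in Cd4-only and 2.45 (2.26 to 2.66) in Cd8-only cells, and Btg1 2.84 (2.51 to 3.20) and 2.62 (2.42 to 2.83). Foxo1 was at 202 (156 to 258) and 173 CPM (149 to 199) in WT, which overlapped, and at 380 (255 to 546) and 172 CPM (124 to 233) in Eif4g2 cKO, which did not. Klf3 was at 68.5 and 83.5 CPM in WT, which overlapped. In Eif4g2 cKO it was at 184 (100 to 308) on 14 UMIs and 28.7 CPM (11.5 to 59.1) on 7 UMIs, which did not. As UMIs per cell in Eif4g2 cKO, the intervals of Btg1 and Foxo1 overlapped and those of Klf3 did not.

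Between the genotypes, Foxp1 and Foxo3 were lower in Eif4g2 cKO in all 5 classes and Klf3 in 4, while Tsc22d3 was higher in 3. Relative to the median of all genes in each class, Foxo3 in mature SP-like cells (-0.45) and Klf3 in resting DP-like (-0.43) and early post-selection-like cells (-0.36) were within 0.5. The members beyond 0.5 were 5 lower and 0 higher of 7 with enough UMIs in DN-like cells, 4 and 1 of 9 in cycling cells, 3 and 1 of 9 in resting DP-like cells, 3 and 1 of 9 in early post-selection-like cells, and 3 and 0 of 8 in mature SP-like cells. Of all genes 27.5%, 36.0%, 31.9%, 36.7% and 35.3% were lower in these classes and 9.14%, 3.21%, 9.16%, 7.14% and 9.06% higher. The counts of lower members in the 4 classes other than DN-like cells are near the background, whose medians lay between -0.12 and -0.28 on the log2 scale. The 5 in DN-like cells became 3 when cells were averaged and also when ratios were centred on the median of all genes. The classes share their 2 libraries, and the values of the 5 classes are not independent.

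Foxp1 had log2 ratios of Eif4g2 cKO to WT of -1.14 (-1.48 to -0.80) in DN-like, -0.97 (-1.08 to -0.87) in cycling, -1.04 (-1.18 to -0.90) in resting DP-like, -1.46 (-1.63 to -1.29) in early post-selection-like and -1.42 (-1.65 to -1.20) in mature SP-like cells. Foxo3 was at -1.19 (-2.07 to -0.34), -1.09 (-1.40 to -0.78), -1.35 (-1.84 to -0.89), -1.16 (-1.76 to -0.60) and -0.68 (-1.55 to 0.10). Klf3 was at -0.98 (-1.41 to -0.56), -1.004 (-1.16 to -0.85), -0.63 (-0.82 to -0.43), -0.63 (-1.03 to -0.24) and -0.40 (-0.85 to 0.04).

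Tsc22d3 was at 0.26 (-0.59 to 1.14) in DN-like, 0.71 (0.46 to 0.97) in cycling, 1.26 (0.96 to 1.57) in resting DP-like, 0.61 (0.12 to 1.10) in early post-selection-like and -0.27 (-0.83 to 0.25) in mature SP-like cells. Klf13 lay between -0.06 and 0.27 in all classes. Btg1 lay within 0.5 except in DN-like cells, at -0.57 (-0.97 to -0.17), and Btg2 was beyond it in DN-like (-0.54) and mature SP-like cells (-0.57). Foxo1 was at -0.61 (-0.88 to -0.33) in cycling cells and between -0.30 and 0.04 in the other 4 classes, with -0.01 (-0.38 to 0.35) in resting DP-like and 0.04 (-0.25 to 0.31) in mature SP-like cells.

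**Figure D3:**
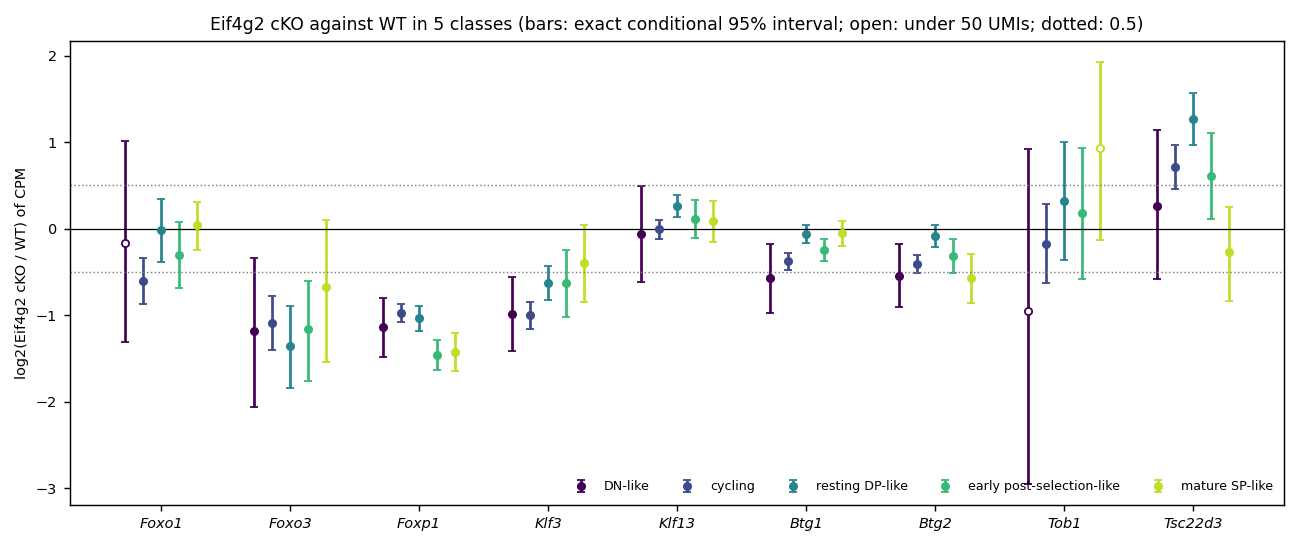
Log2 ratio of Eif4g2 cKO to WT (vertical axis, CPM) for each gene in 5 classes (colours), with exact conditional 95% intervals; open points have under 50 UMIs and dotted lines mark 0.5 on either side of 0. Foxp1 lies between -1.46 and -0.97 and Tsc22d3 reaches 1.26 in resting DP-like cells.

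Resting DP-like cells of the libraries sat in different clusters, and the ratios moved when a cluster was held fixed. The clusters were made from the counts of the same cells, so the cells within 1 cluster were grouped for being alike. The median over all genes moved too, from -0.20 to -0.10 within cluster 0 and -0.06 within cluster 5. The ratios within a cluster therefore do not measure the size of the difference between the libraries. Foxp1 was at -0.57 (-0.96 to -0.21) within cluster 0 and -0.63 (-0.90 to -0.36) within cluster 5, against -1.04 over both, and Foxo3 at -0.44 (-1.68 to 0.56) and -0.84 (-1.72 to 0.09), against -1.35. Klf3 was at -0.27 and -0.35, within 0.5. Tsc22d3 stayed higher, at 1.13 (0.28 to 1.88) and 0.71 (0.14 to 1.34), and Klf13 was at 0.37 (0.02 to 0.69) and 0.70 (0.41 to 1.01). Within cluster 0, 1 of 8 members was lower and 1 higher, beside 27.9% and 14.9% of all genes. Within cluster 5, 2 of 8 were lower and 2 higher, beside 19.8% and 13.0%.

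The ratio of Eif4g2 cKO to WT also moved with the genomic span of a gene over the whole table. In resting DP-like cells its median was 0.23 for 758 genes of up to 5 kb, 0.05 for 2371 genes of 5 to 20 kb, -0.33 for 3309 genes of 20 to 100 kb and -0.80 for 894 genes over 100 kb. Foxp1 spans 597 kb, and its -1.04 lay within the quartiles of the longest bin, -1.10 to -0.50. Its -1.14 in DN-like cells lay within that bin's quartiles of -1.45 and -0.57, and its -0.97 in cycling cells was next to the bin's median of -0.98. Its value in early post-selection-like cells, -1.46, was below the lower quartile of that bin, -1.30, and so was its value in mature SP-like cells, -1.42, against -1.26. Foxo3 (94.9 kb) and Klf3 (29.5 kb) fall in the bin of 20 to 100 kb, where the quartiles were -0.66 and 0.01. Foxo3 was below them and Klf3 within them in resting DP-like cells, and both were below the lower quartile of -0.76 in cycling cells. Klf13 (52.6 kb) and Tsc22d3 (61.1 kb) fall in the same bin and were above its upper quartile in both classes. Foxo1 (84.9 kb) is in that bin too and was within its quartiles in both classes. Btg1 (5.80 kb), Btg2 (3.95 kb) and Tob1 (4.04 kb) are short. Against the lower quartile of genes of up to 5 kb, Btg2 was at -0.085 against -0.053 in resting DP-like cells. In cycling cells it was at -0.41 against -0.24. Tob1 was within the quartiles of that bin in both classes. Btg1 was within those of 5 to 20 kb in resting DP-like cells and just below them in cycling cells, at -0.376 against -0.356. The part of span, or of any technical source of it, in these ratios was not tested. The gene lists described below were set beside all genes and not beside genes of like span.

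**Figure D4:**
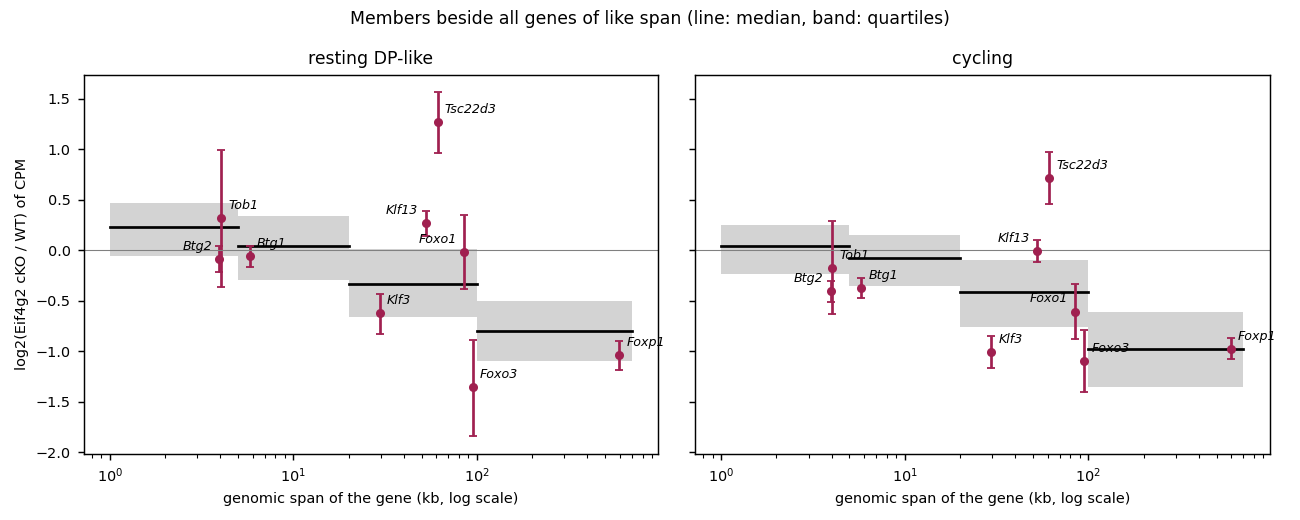
Log2 ratio of Eif4g2 cKO to WT (vertical axis, CPM) of the 9 genes against genomic span (horizontal axis, kb, log scale) in resting DP-like (left) and cycling cells (right), with exact conditional 95% intervals. Black lines and grey bands are the medians and quartiles of all genes in 4 span bins, with the median going from 0.23 to -0.80 in resting DP-like cells, with Tsc22d3 above the band of its bin.

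Tsc22d3 is X-linked, and the libraries differ in Y-linked transcripts. In resting DP-like cells the median log2 ratio was -0.04 for 222 X-linked genes and -0.20 for 7095 autosomal ones, and 18.9% and 8.91% were higher. Among X-linked genes of 20 to 100 kb, 11.1% of 90 were higher. In mature SP-like cells the X-linked median was 0.04, and Tsc22d3 was at -0.27 there. A difference in sex and one in genotype cannot be told apart for this gene. In a list of the glucocorticoid receptor and its response genes, the receptor gene Nr3c1, whose ligand is known to induce Tsc22d3, was at -0.79 (-1.09 to -0.51) in resting DP-like cells, Per1 at -1.20, Errfi1 at -0.85 and Zfp36l2 at 1.02 (0.65 to 1.39). In resting against cycling cells 3 of the 7 genes of this list with enough UMIs were higher in WT and 2 in Eif4g2 cKO, no more than the background of 50.3% and 53.5%. Of the 7, 0 were lower, beside 17.6% and 16.2% of all genes. Errfi1 was at 1.74 and 1.80 and Ddit4 at 1.41 and 1.93. Between genotypes 2 of 7 were higher and 4 lower in resting DP-like cells, and 1 was higher and 0 lower in mature SP-like cells, with Zfp36l2 at 0.57. Among all genes 9.16% and 9.06% were higher and 31.9% and 35.3% lower in these classes.

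The regulators that act on FOXO factors through PI3K and Akt were described by a list of 9 genes. In resting against cycling cells 7 of 9 were higher in WT and 5 of 9 in Eif4g2 cKO, beside 50.3% and 53.5% of all genes. Of the 9, 0 were lower, beside 17.6% and 16.2% of all genes, and the medians were 0.79 and 1.16. The share of higher genes in Eif4g2 cKO is near the background. Inpp5d, which encodes the phosphatase SHIP1, was at 1.73 (1.52 to 1.94) and 2.01 (1.63 to 2.38). Rictor, a subunit of the mTORC2 kinase that phosphorylates Akt, was at 1.18 and 1.56, and Tsc1 at 0.79 and 1.58. Between genotypes 5 of 9 were lower and 0 higher in resting DP-like cells, led by Inpp5d at -1.31 (-1.65 to -0.97) and Rictor at -0.97, and 3 of 7 were lower in mature SP-like cells, beside 31.9% and 35.3% of all genes lower. Of all genes 9.16% were higher in resting DP-like cells.

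A list of 12 genes holds those that Foxo1 is known to switch on in T cells, several of which also name the mature class. In resting against cycling cells 9 of the 10 with enough UMIs were higher and 0 lower in both libraries. Beside them 50.3% and 53.5% of all genes were higher and 17.6% and 16.2% lower. The list had medians of 1.12 and 1.599. Of 11 with enough UMIs, 7 were lower and 0 higher in mature SP-like cells of Eif4g2 cKO, beside 35.3% and 9.06% of all genes, with a median of -0.70 beside -0.23 for all genes. Sesn3 was at -1.36 (-1.89 to -0.86), Il7r, the IL-7 receptor, at -1.17 (-1.63 to -0.73), S1pr1, the exit receptor, at -1.07 (-1.54 to -0.62) and Sesn1 at -1.06, while Foxo1 itself was at 0.04. In resting DP-like cells 3 of 9 were higher and 1 lower, beside 9.16% and 31.9%, with Gabarapl1 at 0.72, Txnip at 0.64 (0.44 to 0.84), Klf2 at 0.53 (-0.21 to 1.27) and Sesn1 at -0.52.

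CCR4-NOT, the deadenylase that BTG/TOB proteins recruit, was described by 11 subunits. In resting against cycling cells 7 of 11 were higher and 1 lower in WT, and 4 and 1 in Eif4g2 cKO, with medians of 0.60 and 0.50. Among all genes 50.3% and 53.5% were higher and 17.6% and 16.2% lower, with medians of 0.51 and 0.58. Cnot4 was at 1.10 and 1.45, Cnot2 at 1.04 and 0.97, and Cnot8, a catalytic subunit, at 0.78 and 0.77, while Cnot9 was lower, at -0.94 (-1.40 to -0.51) and -0.90 (-1.48 to -0.38). Between genotypes 4 of 11 were lower and 0 higher in resting DP-like cells, with Cnot4 at -1.05 and Cnot10 at -1.01, and 3 lower and 1 higher in mature SP-like cells, with Cnot6 at -0.95 and Cnot9 at 0.51. The shares of lower subunits are near the 31.9% and 35.3% of all genes that were lower. Of all genes 9.16% and 9.06% were higher.

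Relatives of the 9 genes did not all share the resting pattern. Of 11 with enough UMIs among 14 KLF, BTG/TOB, TSC22, FOXO and FOXP relatives, 7 were higher and 2 lower in resting WT cells, and 6 and 1 in Eif4g2 cKO, with medians of 0.83 and 0.56. Beside the 50.3% and 53.5% of all genes that were higher, and their median of 0.58 in Eif4g2 cKO, the Eif4g2 cKO values are those of the background. Of all genes 17.6% and 16.2% were lower. Klf7 was at 1.82 (1.66 to 1.97) and 2.16 (1.94 to 2.39), Tob2 at 0.83 and 1.33, Tsc22d1 at 1.11 and 0.99, and Tsc22d2 at 1.04 and 0.92. Between genotypes 4 of 9 were lower in resting DP-like cells, with Foxp4 at -1.32 and Klf7 at -0.67, and 4 of 8 in mature SP-like cells, with Klf10 at -1.61 and Klf6 at -1.56, beside 31.9% and 35.3% of all genes.

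In a list of 11 other quiescence genes, 8 were higher and 1 lower in resting WT cells and 9 and 1 in Eif4g2 cKO, with medians of 1.18 and 1.28, where 50.3% and 53.5% of all genes were higher and 17.6% and 16.2% lower. Vsir, which encodes the checkpoint VISTA, was at 2.58 and 2.55, and Slfn2, whose loss ends T cell quiescence, at 1.95 and 2.17. The retinoblastoma relative Rbl2 was at 1.34 and 1.84 and Zfp36, an RNA-decay factor, at 1.25 and 1.59. Between genotypes 7 of 11 were lower and 1 higher in resting DP-like cells, with Runx1 at -1.49 (-1.69 to -1.29) and Bach2 at -1.39, beside 31.9% of all genes lower and 9.16% higher. In mature SP-like cells 4 of 11 were lower, near the background of 35.3%, and Bach2, a repressor that keeps T cells naive, was at 103 CPM in Eif4g2 cKO against 489 CPM in WT, a log2 ratio of -2.25 (-2.59 to -1.92).

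Across the 5 classes the levels of some members ran together. As log2(CPM + 10), Btg1 and Foxp1 correlated at 0.94 in WT and 0.91 in Eif4g2 cKO and Btg1 and Klf13 at 0.86 and 0.88, whereas Foxo1 and Foxo3 were at -0.11 and 0.25. These describe 5 points from 1 library each, which share the class totals. Among 4215 genes with at least 500 UMIs in each library, the patterns most like that of Btg1 were those of Emb (0.997 and 0.993), Kcmf1 and Nlk. For Foxo1 they were Ski (0.975 and 0.982), Slfn2 and Mitd1, for Foxp1 Chmp4b (0.984 and 0.982), Trim25 and Mcl1, and for Foxo3 Ptpre (0.987 and 0.989), Tmbim4 and Fbxl20. For Klf3 they were Gbp8, Tbc1d22a and Mbtps1, for Klf13 Gpank1, Trpm7 and Stk38, for Btg2 Spata13, Rmdn1 and Hpcal1, and for Tob1 Ufc1, Aph1a and March5. Tsc22d3 had the loosest matches, Degs1 (0.927 and 0.979), Ctsd and Crlf3.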

How the data were processed

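Thymus cells of 1 WT and 1 Eif4g2 cKO mouse were profiled by droplet single-cell RNA-seq. The authors ran dnbc4tools (version 2.1.3 in the design text and 3.0 in the file headers) and deposited raw UMI counts per gene and barcode, without normalization, for barcodes of at least 1000 UMIs. The submitters' processing notes name mm10. Positions came from GENCODE M21 (GRCm38), which held 21379 of 21926 identifiers (97.5%) with the same version. Matrices of the oligo libraries were not analysed here.

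Cells with at least 50 genes and at most 10% mitochondrial UMIs were kept (6012 of 6014 WT and 4335 of 4335 Eif4g2 cKO barcodes, with medians of 1732 and 2140 UMIs over all barcodes). Counts were scaled to 10000 and log-transformed, and 2000 variable genes without the 9 members, Eif4g2 and the 6 other gene lists gave 30 principal components, 20 neighbours and Leiden clusters at a resolution of 1 (scanpy 1.11.5, seed 1), on all cells together and again on the T lineage. A cluster was named from at least 3 markers raised by 0.5 on the log2 scale. No doublet caller was run and no doublet was removed; droplets that hold more than 1 cell would fall among cells of high UMI counts. An erythroid-like cluster (41 WT and 4 Eif4g2 cKO cells) and an unnamed one of 11 cells stayed out. So did DP-like cells with 1 or 2 cycle UMIs (1520 WT and 1119 Eif4g2 cKO) and cells of cycling-like clusters below the cycling call.

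UMIs were summed per class and library and given as CPM with exact Poisson 95% intervals. Log2 ratios had exact conditional binomial intervals (scipy 1.17.1). With 1 library per genotype no test was run and no p-value made. Members were counted beyond 0.5 with at least 50 UMIs over both arms. Other genes were named by rule, as the up to 4 with the largest ratios beyond 0.5 of each list (in the same direction in both libraries for rest against cycling, in resting DP-like or mature SP-like cells between genotypes), and the 3 genes most like each member by the lower of its 2 correlations. A gene of a list that the rule would name is not reported here. The members and lists were chosen with earlier results of these data known. The procedure was tested on simulated data. Alternatives changed the cell filter, resolution, clustering genes, cycle call, weight of cells and UMI minimum.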

Additional observations from a re-analysis of the deposited data

How the results depend on the processing

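With 1 library per genotype and class, depth sets only the counting intervals, and the spread between mice is unknown. Barcodes under 1000 UMIs, doublets and the part of free RNA were not examined. No paired analysis was possible because each genotype had 1 library. Of the counts of members, 186 were within 1.5 times the reported count under the alternatives and 20 were not. Of medians and single genes, 750 kept their value within the counting interval, 189 moved and 38 changed sign. For values that moved, the cause was not tested.

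Averaging over cells gave 3 lower members in DN-like cells between genotypes, and a minimum of 20 UMIs gave 1 higher in mature SP-like cells. No cell filter gave 0 higher in cycling cells. There the WT cycling class held 564 cells in place of 1166, although the filter had kept 6012 of 6014 WT barcodes. The WT mature SP-like class held 734 in place of 633, so class sizes were not stable. Clustering each library alone gave 2 higher in early post-selection-like cells. Clustering alone left 0 mature SP-like cells in Eif4g2 cKO, so the 2 comparisons that need them were not run. Its early post-selection-like class held 787 Eif4g2 cKO cells in place of 585, while WT kept 809 mature SP-like cells. The early post-selection-like classes of the libraries are therefore not like for like in this setting. Resolution, clustering genes and cycle call left the other counts within 1.5 times.

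The alternatives below were chosen after seeing the data. For resting against cycling cells within the DP-like clusters alone, WT had 1 member higher, with Foxo3 at -0.38, Klf3 at -0.28, Klf13 at -0.17 and Btg1 at -0.0076. There Eif4g2 cKO had 0 higher and 1 lower, a median of -0.065, Foxo3 at -0.53, Foxp1 at -0.24, Klf3 at -0.004, Klf13 at -0.17 and Btg1 at -0.13.

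As UMIs per cell, resting against cycling cells of WT gave 0 higher, 3 lower and a median of -0.45, with Foxo1 at -0.79, Foxo3 at -0.45, Foxp1 at -0.28, Klf3 at -0.38, Klf13 at -0.29, Btg2 at -0.47, Tob1 at -1.07 and Tsc22d3 at -0.63. The same scale gave, for Eif4g2 cKO, 0 higher, 3 lower and a median of -0.32, with Foxo1 at -0.38, Foxo3 at -0.89, Foxp1 at -0.51, Klf3 at -0.18, Klf13 at -0.19, Btg2 at -0.32, Tob1 at -0.75 and Tsc22d3 at -0.25. Mature SP-like against resting DP-like cells of WT gave 4 higher, 0 lower and a median of 0.41 per cell, with Foxo3 at 0.018, Klf13 at 0.26, Btg2 at 0.14 and Tob1 at 0.41. For Eif4g2 cKO it gave 4 higher, 0 lower and a median of 0.37, with Foxo3 at 0.67, Foxp1 at 0.77 and Klf13 at 0.061.

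Mature cells with 0 cycle UMIs put Foxo3 of Eif4g2 cKO at 0.040 against resting DP-like cells. Between genotypes in resting DP-like cells, cluster 0 alone had 1 lower member and cluster 5 alone 2 higher. Centring on the median of all genes gave 3 lower in DN-like cells, 2 higher in resting DP-like cells and 1 lower in mature SP-like cells. Taking cells of 2000 to 4000 UMIs kept the direction of resting against cycling cells for the members with enough UMIs there, 8 in WT and 7 in Eif4g2 cKO, and leaving out cells with antigen-presenting markers kept that of mature SP-like against resting DP-like cells for those tested.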
